A study of Mus musculus with 24 samples.

Results

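Long intergenic noncoding RNAs (lincRNAs) were examined in mouse long-term haematopoietic stem cells (LT-HSCs) as the 441 autosomal rows of the expression table with the biotype lincRNA and a mean of at least 20 expected counts over 24 libraries. The rows were chosen by their biotype and mean level, out of 38215 rows in the table. The table held 2111 lincRNA rows, of which 2006 were autosomal and 446 reached the minimum, and 5 of these were left out. Those were the imprinted H19 and Meg3 and rows in the region of chromosome 1 around the donor marker Ptprc. Just outside the minimum lay Gm17322 with a mean of 19.79 counts and 1700023H06Rik with 19.92 counts. Just inside lay 2700012I20Rik with 20.21 counts and Gm5106 with 20.36 counts.

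Polyadenylated RNA was sequenced from 4 groups of 6 libraries. Jak2V617F libraries held CD45.2 cells of a C57Bl/6N Jak2V617F/+ Tg(E2A-cre) donor, and wild-type libraries held CD45.1 cells of a congenic C57Bl/6N Ptprca donor. In both genotypes 6 libraries came from mice given pegylated interferon alpha (pegIFN) and 6 from mice given vehicle. Jak2V617F keeps the kinase Jak2, which signals from cytokine receptors, active without ligand, and drives myeloproliferative neoplasms. It was heterozygous, and E2A-cre is a deleter active in the early embryo, so the allele was not limited to stem cells. Both donors' marrow shared the same irradiated recipients (11 Gy, 2000000 marrow cells), and the library names carry a number per mouse that places 1 library of each genotype with every recipient. Each of the 5 weekly pegIFN doses, spread over 4 weeks, held 600 ng, and lineage-negative Sca1+ cKit+ CD150+ CD48- cells were sorted 48 h after the last dose. The labels used here give no age of the animals.

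Noncoding RNAs of this kind work in several ways. Some act as the transcript itself in nuclear bodies or on chromatin, some are hosts whose introns or exons yield microRNAs or small nucleolar RNAs, and for others the act of transcription matters to a gene nearby. Type I interferon acts through receptor-bound JAK kinases on transcription factors that bind interferon-stimulated response elements in target promoters, and many noncoding RNAs close to such promoters are transcribed along with them.

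The libraries held 24.6 M to 39.7 M counts each, and 15879 genes passed the filter on low counts and were tested. Of 8 genes that mark the LT-HSC gate, all were tested, and 6 fell and 1 rose with pegIFN in both genotypes, while 8 of 8 interferon-stimulated genes rose with pegIFN in both genotypes. Jak2V617F libraries had 2.996 to 653.9 CPM (counts per 1000000 of the scaled library) of the female transcript Xist, against 599.8 to 3310 CPM in wild-type libraries, and their Y-linked genes summed to 149.3 CPM or more. Donor sex and genotype therefore cannot be told apart in any genotype comparison below, although no member lies on a sex chromosome. In 2 libraries both kinds of transcript were raised most, namely Jak2V617F pegIFN replicate 1 (Xist 653.9 CPM) and wild-type vehicle replicate 4 (Y-linked genes 249.6 CPM), and results that depend on them are given with and without them. Smaller amounts were found elsewhere. Y-linked genes summed to 20.18 to 75.66 CPM in the other wild-type vehicle and 2.166 to 22.66 CPM in wild-type pegIFN libraries. Xist had 40.8 to 110.1 CPM in the other Jak2V617F pegIFN and 2.996 to 54.91 CPM in Jak2V617F vehicle libraries. These amounts thus shifted with treatment too, and their part was not tested. Markers of other cells moved with treatment as well: 6 of 8 erythroid genes fell and 1 rose with pegIFN in both genotypes, and they summed to 72.86 to 309.6 CPM in Jak2V617F pegIFN, 202.5 to 559.8 in Jak2V617F vehicle, 280.6 to 496.2 in wild-type pegIFN and 210.9 to 942.9 CPM in wild-type vehicle libraries. Of 6 megakaryocyte and mast cell genes, 1 rose in Jak2V617F and 4 in wild-type cells, and none of these 14 genes was under 0.1 CPM throughout. Of 4 tested endothelial and stromal genes, 2 fell in Jak2V617F and 3 in wild-type cells, and the list summed to 65.66 to 83.32 CPM in Jak2V617F pegIFN, 74.05 to 169.4 in Jak2V617F vehicle, 66.69 to 86.14 in wild-type pegIFN and 72.24 to 111 CPM in wild-type vehicle libraries. Of 5 tested B cell rows 1 fell in Jak2V617F and 3 in wild-type cells, and of 9 granulocyte and monocyte genes 0 fell in Jak2V617F and 2 in wild-type cells. The 1 tested T and NK cell gene rose in both genotypes. That list summed to 89.3 to 142.8 CPM in Jak2V617F pegIFN and 57.45 to 77 CPM in Jak2V617F vehicle libraries. Its sums were 65.12 to 102.4 CPM in wild-type pegIFN and 33.52 to 75.75 CPM in wild-type vehicle libraries. The part of all these markers in the results was not tested. In RNA from pooled sorted cells, fewer cells of a type and less RNA per cell cannot be told apart.

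The name intergenic held for a minority of the rows. By gene ID, 425 of the 441 were in a later annotation (GENCODE M21, on the same genome build GRCm38), all at an overlapping position on the same strand. That annotation keeps 183 as lincRNA and lists 101 as antisense, 100 as processed transcripts, 20 as transcripts of bidirectional promoters and 14 as protein coding, with 7 in other classes. By the positions in the table, 308 rows overlapped another gene and 259 overlapped a protein-coding gene, and 45 overlapped nothing and lay more than 5 kb from any coding gene. Of the 425 rows, 134 shared no exon base with another gene, 274 shared some with a gene on the other strand and 30 with one on the same strand. Read counts were whole numbers in every library for 179 rows, and for 262 rows RSEM had divided some reads between genes. The strand setting of the counting is not given in the sources used here, so for the overlapping rows reads of the partner gene cannot be told apart from their own. Names below are those of M21, with the table's name where it differs.

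Several rows that M21 calls protein coding are known under other roles. Nlrc5, at chr8:94472763-94527272, encodes the transactivator of MHC class I genes. Mtln (1500011K16Rik) encodes mitoregulin, a micropeptide of mitochondria, and Smim1 (1190007F08Rik) encodes the membrane protein that carries the Vel blood group antigen in humans. Platr17 (BC033916) carries the symbol Smim40 in RefSeq. Among these 14 rows, 5 rose and 2 fell with pegIFN in Jak2V617F cells, and 5 rose and 6 fell in wild-type cells.

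The sequences most relevant to the results are those of the interferon element and of microRNAs made from 2 of the hosts. RefSeq (GRCm38.p6) gave a promoter, the 250 bases before to 50 after the start, for 229 of the 441 rows. The letters GAAA, any 2 bases and GAAA again, which interferon-stimulated response elements share, occurred on either strand in 8 of these 229 promoters (3.49%), against 1131 of 32851 promoters in the whole table (3.44%). Of the rows with a promoter that rose with pegIFN in wild-type cells, 2 of 20 held it, and of those that fell, 3 of 101. The letters TTCNNNGAA, shared by gamma-activated sequences, occurred in 12 of the 229 (5.24%), against 2726 of 32851 (8.3%). Both that rose are printed first, and 2 that fell after them, each 5′ to 3′ on the strand of the transcript, with the letters of the element in capitals (on the fourth it lies on the opposite strand and is printed as its complement).

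1700006J14Rik, chr10:120363884-120364183, plus strand: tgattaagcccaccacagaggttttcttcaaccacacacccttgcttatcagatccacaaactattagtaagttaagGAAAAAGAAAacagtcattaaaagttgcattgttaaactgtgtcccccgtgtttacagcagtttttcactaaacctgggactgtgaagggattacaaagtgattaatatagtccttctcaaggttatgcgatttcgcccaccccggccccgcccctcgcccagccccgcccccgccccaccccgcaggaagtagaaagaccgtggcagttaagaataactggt
Gm26797, chr9:122310879-122311178, minus strand: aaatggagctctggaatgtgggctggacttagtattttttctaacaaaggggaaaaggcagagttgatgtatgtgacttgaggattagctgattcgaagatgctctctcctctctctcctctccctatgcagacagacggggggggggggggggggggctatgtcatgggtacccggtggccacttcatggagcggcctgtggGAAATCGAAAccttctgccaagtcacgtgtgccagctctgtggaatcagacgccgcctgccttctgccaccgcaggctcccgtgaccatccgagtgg
A930006K02Rik, chr16:91464854-91465153, plus strand: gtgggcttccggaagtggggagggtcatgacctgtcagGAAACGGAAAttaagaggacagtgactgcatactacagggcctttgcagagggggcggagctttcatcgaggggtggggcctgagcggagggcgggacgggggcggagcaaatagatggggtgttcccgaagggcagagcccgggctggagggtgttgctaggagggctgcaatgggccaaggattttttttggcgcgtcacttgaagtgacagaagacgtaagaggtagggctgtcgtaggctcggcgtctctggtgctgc
Gm15834, chr1:58504870-58505169, plus strand: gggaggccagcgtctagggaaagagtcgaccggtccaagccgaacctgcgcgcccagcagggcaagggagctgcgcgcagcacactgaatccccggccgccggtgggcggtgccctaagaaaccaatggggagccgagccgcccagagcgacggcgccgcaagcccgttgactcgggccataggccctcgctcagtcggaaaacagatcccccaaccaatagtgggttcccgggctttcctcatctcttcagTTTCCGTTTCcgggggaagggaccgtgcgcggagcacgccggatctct

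The element began 173 bases before the start in 1700006J14Rik, 47 before it in Gm26797 and 212 before it in A930006K02Rik, and 2 bases after it in Gm15834. A match is a description of letters and was not tied to binding of a factor. The host RNAs carry the microRNAs below, printed as RNA with the seed, bases 2 to 8, in capitals. No seed was shared among these 4. Mature microRNAs are too short for polyadenylated RNA libraries of this kind, and their levels were not measured.

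mmu-miR-155-5p, in Mir155hg: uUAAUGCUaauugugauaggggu
mmu-miR-155-3p, in Mir155hg: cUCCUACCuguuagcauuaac
mmu-miR-142a-5p, in Mir142hg: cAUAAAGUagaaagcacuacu
mmu-miR-142a-3p, in Mir142hg: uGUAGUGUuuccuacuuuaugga

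Levels spanned a wide range. Malat1 alone, a nuclear-retained RNA of splicing speckles, averaged 1738 CPM. It took 0.08032 to 0.1489% of the scaled library in Jak2V617F pegIFN and 0.1755 to 0.2424% in Jak2V617F vehicle libraries. In wild-type cells it took 0.08872 to 0.147% in pegIFN and 0.1497 to 0.2933% in vehicle libraries. The next most abundant were AI662270 with a mean of 257.1 CPM, Nlrc5 with 254.6, 1700020I14Rik (Oip5os1 or Cyrano, which binds miR-7) with 252.2 and Tug1 with 136.4 CPM. Per kb of exon, which allows levels of different genes to be compared, Malat1 led with 248.9 CPM per kb. It was followed by Snora43, which M21 lists as a small nucleolar RNA, with 123.2, by 2410006H16Rik with 115.3 and by AI662270 with 84.88 CPM per kb. The median member had a mean of 83.4 counts, 19 members reached 1000 counts and 253 were under 100. All 441 members together made up 0.4231 to 0.505% of the scaled library in Jak2V617F pegIFN and 0.5471 to 0.6306% in Jak2V617F vehicle libraries. They made up 0.4333 to 0.5107% in wild-type pegIFN and 0.5001 to 0.7333% in wild-type vehicle libraries. The ranges with and without pegIFN did not overlap in Jak2V617F cells, and overlapped slightly in wild-type cells. Without Malat1 the shares were 0.3308 to 0.358% against 0.3461 to 0.3906% in Jak2V617F, and 0.3247 to 0.3637% against 0.3503 to 0.44% in wild-type cells, and these ranges overlapped in both.

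The effect of pegIFN in each genotype was the first comparison. The main outcome was that far more of these RNAs fell than rose. In Jak2V617F LT-HSCs 137 of 441 fell and 30 rose (31.1% and 6.8%), by edgeR's quasi-likelihood test with Benjamini-Hochberg adjustment at an adjusted p under 0.05, termed called below. Over all tested genes 22.3% fell and 21.7% rose. In wild-type LT-HSCs 181 of 441 fell and 36 rose, where over all tested genes 28.7% fell and 28.2% rose. As a median, members changed by -0.29 in Jak2V617F and -0.39 in wild-type cells on the log2 scale, while that of all tested genes was -0.01 in both. Among 12100 protein-coding rows held to the same minimum the median was 0.01 in Jak2V617F and 0.02 in wild-type cells. A mean of 20 counts or more in every group was reached by 380 members, and the other 61 reached the minimum through only some of the groups, so that a difference helped to place them in the set. All 61 are in the counts above. Among them are 1810020O05Rik, Gm13111, Gm26797, Platr17, 3300005D01Rik and Gm14005, which are named below.

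**Figure D1:**
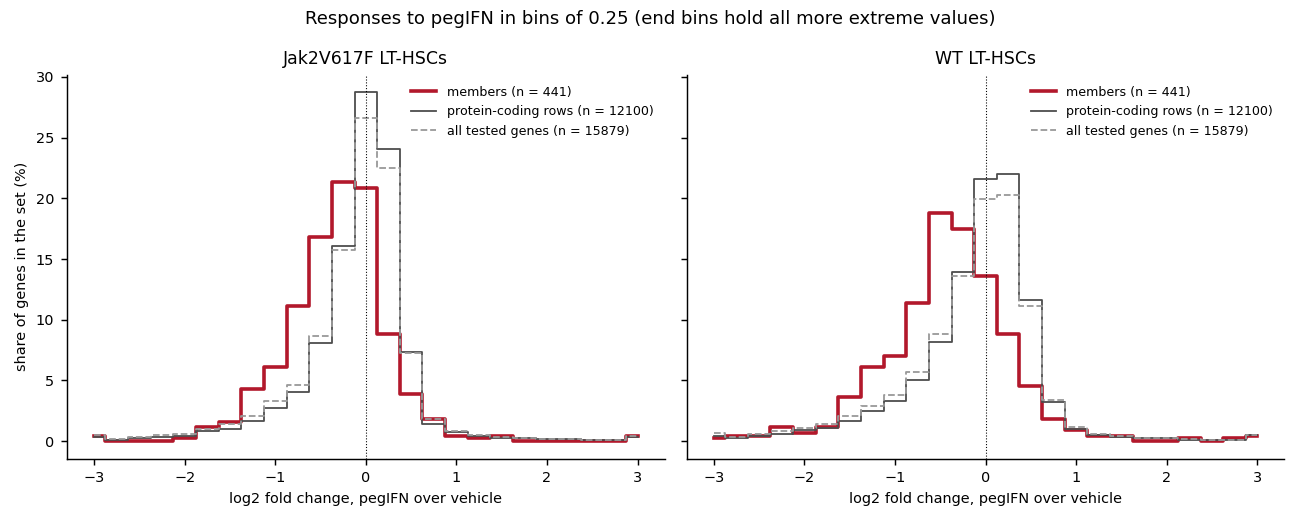
Distribution of log2 fold changes (pegIFN over vehicle, x axis) as the share of each set (y axis, %) in Jak2V617F (left) and wild-type (right) LT-HSCs, for the 441 members, 12100 protein-coding rows and all 15879 tested genes. The members' curve lies left of both others, with medians of -0.29 in Jak2V617F and -0.39 in wild-type cells.

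Falls outnumbered rises in the larger annotation classes. Of the 183 rows that M21 keeps as lincRNA, 58 fell and 11 rose in Jak2V617F and 77 fell and 12 rose in wild-type cells. Of the 101 antisense rows, 26 fell and 5 rose in Jak2V617F and 37 fell and 11 rose in wild-type cells. Among the 45 rows that overlapped no gene and lay over 5 kb from a coding gene, 18 fell and 6 rose in Jak2V617F and 24 fell and 3 rose in wild-type cells, with median log2 fold changes of -0.47 and -0.66. Of the 85 rows divergent from their nearest coding gene, 39 fell and 5 rose in Jak2V617F and 43 fell and 4 rose in wild-type cells. Rows with whole counts throughout gave 75 lower and 10 higher of 179 in Jak2V617F, and 94 lower and 11 higher in wild-type cells. At a mean of 1000 counts or more the imbalance was small, with 5 lower and 3 higher of 19 in both genotypes.

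**Figure D2:**
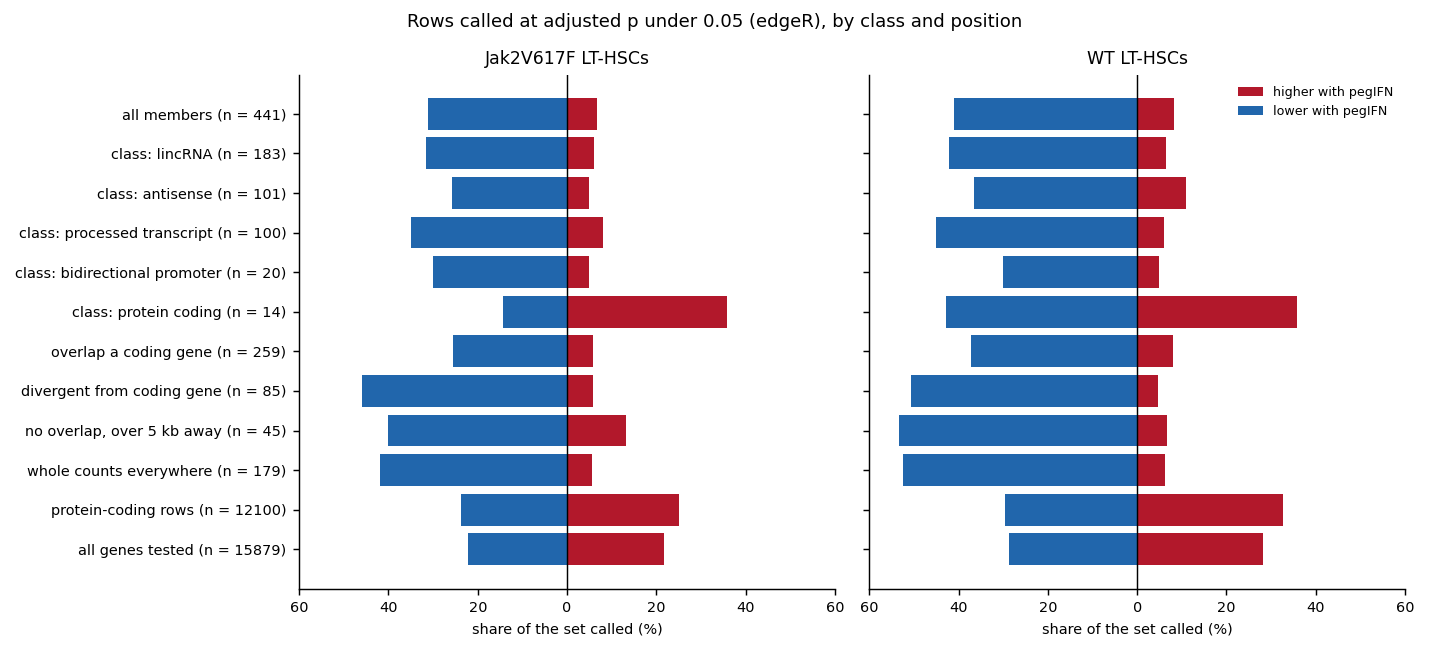
Share of rows called higher (red, right of 0) and lower (blue, left of 0) with pegIFN at an adjusted p under 0.05, in % of each set, in Jak2V617F (left) and wild-type (right) LT-HSCs. Members lean to the lower side in each class, except that the 14 rows that M21 lists as protein coding lean to the higher side in Jak2V617F cells, with 5 higher and 2 lower, whereas the protein-coding rows of the table and all genes are close to even.

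Members called in both genotypes had the same sign in both. Of the members, 118 fell in both genotypes, 21 rose in both and 0 were called in opposite directions, while 196 were called in neither. The same overlap was not counted over all tested genes, so it cannot be read as particular to these RNAs. The 118 had a median log2 fold change of -0.77 in Jak2V617F and -1.02 in wild-type cells, and for 95 of them the fitted change was larger in wild-type cells. Changes beyond 1 on the log2 scale were called lower for 41 and higher for 6 members in Jak2V617F, and lower for 77 and higher for 9 in wild-type cells. The difference between the genotypes' responses was itself tested and is given further on.

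**Figure D3:**
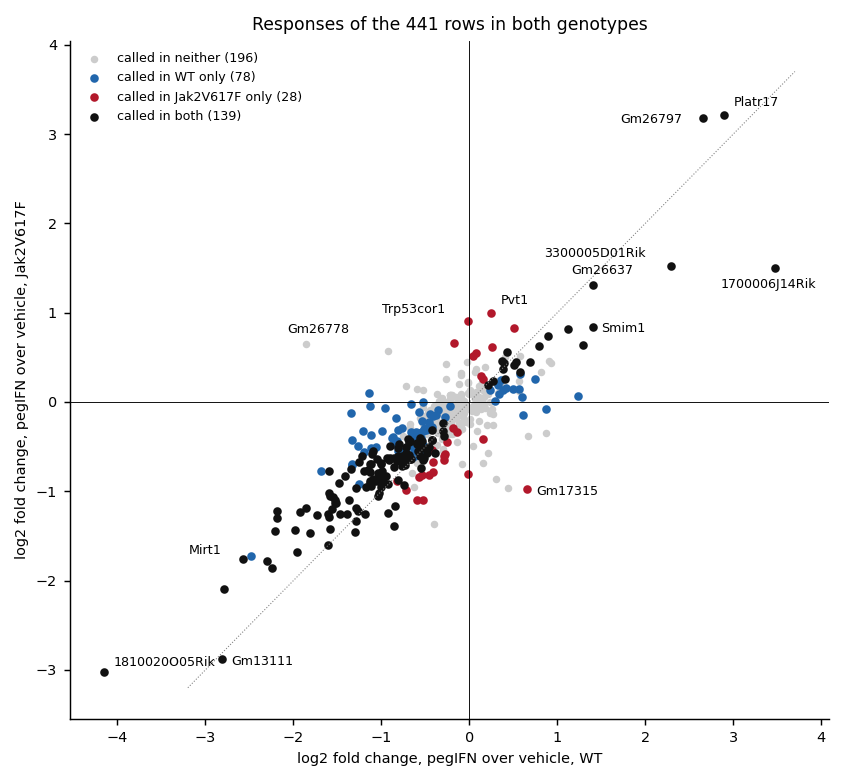
Log2 fold change with pegIFN in Jak2V617F cells (y axis) against wild-type cells (x axis) for the 441 rows, coloured by where they were called, with equality as a dotted line. Called rows lie in the lower left and upper right, with 118 lower and 21 higher in both genotypes.

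The steepest falls among members with at least 2 CPM were those of Gm13111, Mirt1 and 4833407H14Rik. Gm13111 (RefSeq Prdm16os), at chr4:154637576-154644716, starts 0.703 kb from Prdm16, a transcription factor needed to maintain stem cells, and runs in the opposite direction. It had 0.06593, 0.4771, 1.28, 0.2894, 0.03388 and 0.06121 CPM in Jak2V617F pegIFN libraries against 2.559, 3.415, 2.521, 4.634, 1.803 and 1.624 CPM in Jak2V617F vehicle libraries. It had 0.5956, 0.3448, 0.9398, 0.4128, 0.422 and 1.163 CPM in wild-type pegIFN libraries against 2.092, 5.615, 3.352, 5.259, 6.94 and 4.17 CPM in wild-type vehicle libraries. Treated and vehicle libraries did not overlap in either genotype, and replicate 3 was the highest treated Jak2V617F library. The log2 fold change was -2.88 ± 0.54 (standard error, SE) in Jak2V617F (adjusted p = 0.000189) and -2.81 ± 0.52 in wild-type cells (adjusted p = 6.93e-05). Prdm16 itself fell by 0.76 and 1.25 on the same scale in Jak2V617F and wild-type cells (adjusted p = 0.0452 and 0.00127).

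Mirt1 (AC123702.1), described in the mouse heart after infarction, and 4833407H14Rik (AC123702.2), transcribed within it on the other strand, lie between Smndc1 and Dusp5 on chromosome 19. Mirt1 had 3.725, 1.772, 6.616, 2.496, 2.541 and 2.448 CPM in Jak2V617F pegIFN libraries and 4.959, 8.275, 5.007, 23.59, 14.13 and 10.81 CPM in Jak2V617F vehicle libraries. In wild-type cells it had 1.949, 1.536, 3.048, 1.582, 1.591 and 2.16 CPM with pegIFN and 7.097, 8.083, 4.886, 25.48, 12.54 and 12.51 CPM with vehicle. The groups overlapped in Jak2V617F cells through treated replicate 3 and were apart in wild-type cells. Vehicle replicate 4, a single mouse by its number, was highest in both genotypes. The wild-type library of that mouse is among the 2 that stand apart, with Xist at 599.8 CPM and Y-linked genes at 249.6 CPM. The part of this in its Mirt1 level was not tested. Mirt1 fell by 1.76 ± 0.41 in Jak2V617F and by 2.57 ± 0.43 in wild-type cells on the log2 scale (SE, adjusted p = 0.00147 and 2.5e-05). 4833407H14Rik, of whose exon bases 67.5% are shared with another gene, fell by 1.45 in Jak2V617F and 2.21 in wild-type cells. Dusp5, a phosphatase that limits ERK signalling, lies 66.39 kb from 4833407H14Rik and fell by 1.38 in Jak2V617F and 1.51 in wild-type cells.

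2810468N07Rik is Cerox1 in RefSeq, a cytoplasmic RNA known to raise mitochondrial complex I subunits in mouse cells. It had 1.121, 0.3408, 1.616, 0.8681, 0.9147 and 0.6733 CPM in Jak2V617F pegIFN libraries, all under the 2.155 to 3.199 CPM of Jak2V617F vehicle libraries. In wild-type cells it had 0.6191 to 1.397 CPM with pegIFN and 2.318 to 4.605 CPM with vehicle, again without overlap. It fell by 1.43 ± 0.26 in Jak2V617F and by 1.98 ± 0.26 in wild-type cells on the log2 scale (SE, adjusted p = 0.000132 and 1e-06). Gm17552 (AC109138.2), which overlaps Carns1 and had divided reads in all 24 libraries, fell by 1.23 in Jak2V617F and 1.92 in wild-type cells, and Carns1 by 1.05 in Jak2V617F and 1.56 in wild-type cells. RP23-155H5.3 fell by 1.42 in Jak2V617F and 1.58 in wild-type cells.

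Gm26532 (RP24-64D24.4), at chr8:84208920-84209609, fell by 1.27 ± 0.48 in Jak2V617F and by 1.73 ± 0.49 in wild-type cells (SE, adjusted p = 0.0367 and 0.00449), and without the 2 libraries that stand apart the adjusted p in Jak2V617F cells was 0.0845. Its levels differed far more between mice than between the genotypes of a mouse. In pegIFN mice 1 to 6 it had 1.384, 4.396, 1.402, 0.9042, 4.845 and 3.734 CPM in Jak2V617F cells and from 0.8255 to 4.253 CPM in wild-type cells. In vehicle mice 1 to 6 it had 4.319, 7.29, 10.96, 7.003, 8.884 and 1.889 CPM in Jak2V617F cells and 5.966, 8.515, 11.16, 10.57, 10.2 and 2.601 CPM in wild-type cells. The ratio of Jak2V617F to wild-type level within a mouse ran from 1.06 to 1.25 in the 6 pegIFN mice and from 0.663 to 0.982 in the 6 vehicle mice.

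The most abundant member fell too. Malat1, at chr19:5795690-5802672, had 1402, 1371, 803.2, 1467, 1308 and 1489 CPM in Jak2V617F pegIFN libraries, all below the 1755 to 2424 CPM of Jak2V617F vehicle libraries. In wild-type cells it had 887.2, 1170, 902.7, 1199, 1439 and 1470 CPM with pegIFN and 1497, 2771, 2383, 2933, 2279 and 2419 CPM with vehicle, where the treated maximum stood just under the vehicle minimum. The fold change was 0.626 in Jak2V617F (adjusted p = 0.00153) and 0.495 in wild-type cells (adjusted p = 1.23e-05). Gm17275 (AC121292.1), which overlaps the histone gene H3f3a, fell by 0.45 in Jak2V617F and 0.69 in wild-type cells on the log2 scale, while H3f3a was not called (0.03 in Jak2V617F and -0.11 in wild-type cells). Atp10d, a polymorphic pseudogene in M21, fell by 0.91 in Jak2V617F and 1.13 in wild-type cells, and 2610035D17Rik by 0.55 in Jak2V617F and 1.10 in wild-type cells.

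Below 2 CPM lay further deep falls, picked here after their values were seen. 1810020O05Rik fell to a mean of 0.09697 CPM in Jak2V617F pegIFN libraries, against 0.7942 CPM in Jak2V617F vehicle libraries, and to 0.08606 CPM in wild-type pegIFN libraries, against 1.581 CPM in wild-type vehicle libraries. Its log2 fold changes of -3.02 in Jak2V617F and -4.15 in wild-type cells were the lowest of all 441 in their comparisons, and they rest on few reads. It reached the minimum count through its vehicle libraries, so the fall itself helped to place it in the set. Gm26802, 1.951 kb from the immediate early gene Fosb, fell by 1.78 in Jak2V617F and 2.30 in wild-type cells. Gm16897, antisense to the stem and progenitor surface gene Cd34, fell by 1.68 in Jak2V617F and 1.96 in wild-type cells.

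The rises were fewer and some were steep. 1700006J14Rik, at chr10:120364157-120384336, lies inside Hmga2, a chromatin protein of fetal and self-renewing stem cells, on the opposite strand. It had 11.57, 10.19, 5.549, 8.428, 9.757 and 8.752 CPM in Jak2V617F pegIFN libraries against 2.079, 6.675, 5.358, 0.8013, 1.705 and 2.486 CPM in Jak2V617F vehicle libraries. It had 21.09, 17.74, 15.72, 26.07, 28.99 and 14.88 CPM in wild-type pegIFN libraries against 1.414, 1.882, 2.924, 1.517, 1.887 and 1.639 CPM in wild-type vehicle libraries. The wild-type groups were far apart, and 1 vehicle library overlapped the treated ones in Jak2V617F cells. The rise was 2.82-fold in Jak2V617F (log2 1.50 ± 0.34, adjusted p = 0.001) and 11.1-fold in wild-type cells (log2 3.47 ± 0.36, SE, adjusted p = 4.85e-08). Hmga2 itself fell by 1.06 in Jak2V617F and 1.46 in wild-type cells on the log2 scale (adjusted p = 0.0311 and 0.00306), from a low level, and reads at the row were divided between genes in all 24 libraries. Its promoter is the first of those printed above.

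Gm26797 (AC121264.1), on chromosome 9 about 11.76 kb from Ano10, carries the element 47 bases before its start. It was named here after its values were seen, since its mean is under 2 CPM. It had 3.395, 2.352, 4.36, 3.689, 2.676 and 2.907 CPM in Jak2V617F pegIFN libraries against 0.3599, 0.4307, 0.2451, 0.3484, 0.5901 and 0.1326 CPM in Jak2V617F vehicle libraries. It had 1.975 to 4.386 CPM in wild-type pegIFN libraries against 0.2497 to 0.6802 CPM in wild-type vehicle libraries, and neither genotype's groups overlapped. The rise was 9.09-fold in Jak2V617F (adjusted p = 6.76e-09) and 6.33-fold in wild-type cells (adjusted p = 3.52e-08). Ano10, a calcium-linked membrane protein, was not called (0.17 in Jak2V617F and -0.05 in wild-type cells, log2), and the row's counts were whole in all libraries.

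Gm26637 (AC154274.1) overlaps Eif2ak2, the interferon-induced kinase PKR, on the opposite strand. It had 6.23 to 8.811 CPM in Jak2V617F pegIFN libraries against 2.404 to 4.279 CPM in Jak2V617F vehicle libraries, and 7.962 to 10.49 CPM in wild-type pegIFN libraries against 2.799 to 3.98 CPM in wild-type vehicle libraries. It rose 2.47-fold in Jak2V617F and 2.64-fold in wild-type cells (adjusted p = 6.56e-08 and 8.37e-09). On the log2 scale Eif2ak2 rose by 1.49 in Jak2V617F and 1.61 in wild-type cells, and Gm26637 by 1.31 in Jak2V617F and 1.40 in wild-type cells, and reads were divided between genes in all 24 libraries. Platr17 (Smim40), 2.739 kb from the interferon-induced histone chaperone gene Daxx on the same strand, rose by 3.21 ± 0.92 in Jak2V617F and 2.90 ± 0.92 in wild-type cells (SE, adjusted p = 0.00717 and 0.00978). It was uneven, with 0.4285, 0.1704, 3.475, 9.44, 4.032 and 0.153 CPM in Jak2V617F pegIFN libraries and 0 to 0.9834 CPM in Jak2V617F vehicle libraries, and 3 treated libraries stood within the vehicle range. Daxx rose by 1.56 in Jak2V617F and 1.79 in wild-type cells.

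3300005D01Rik (RP23-251I6.1), an intergenic row 38.09 kb from Snx9, had 1.25 to 2.472 CPM in Jak2V617F pegIFN libraries against 0.4922 to 1.115 CPM in Jak2V617F vehicle libraries. It had 1.329 to 1.651 CPM in wild-type pegIFN libraries against 0.1599 to 0.5089 CPM in wild-type vehicle libraries. Neither pair of groups overlapped, and the rise was 2.87-fold in Jak2V617F and 4.9-fold in wild-type cells (adjusted p = 3.72e-05 and 1.57e-07). Smim1 had 3.567 to 9.44 CPM in Jak2V617F pegIFN and 2.919 to 6.759 CPM in Jak2V617F vehicle libraries, which overlapped, and 7.239 to 12.86 CPM in wild-type pegIFN and 1.668 to 4.597 CPM in wild-type vehicle libraries, which did not. It rose 1.79-fold in Jak2V617F and 2.64-fold in wild-type cells (adjusted p = 0.00467 and 1.69e-05). A730011C13Rik rose by 0.74 in Jak2V617F and 0.89 in wild-type cells on the log2 scale, and Crnde (4933436C20Rik), raised in several human tumours, by 0.63 in Jak2V617F and 0.79 in wild-type cells. Nlrc5 had 218.4 to 309.8 CPM in Jak2V617F pegIFN libraries and 164.6 to 253.8 CPM in Jak2V617F vehicle libraries, and rose 1.33-fold there and 1.42-fold in wild-type cells (adjusted p = 0.0074 and 0.000878).

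**Figure D4:**
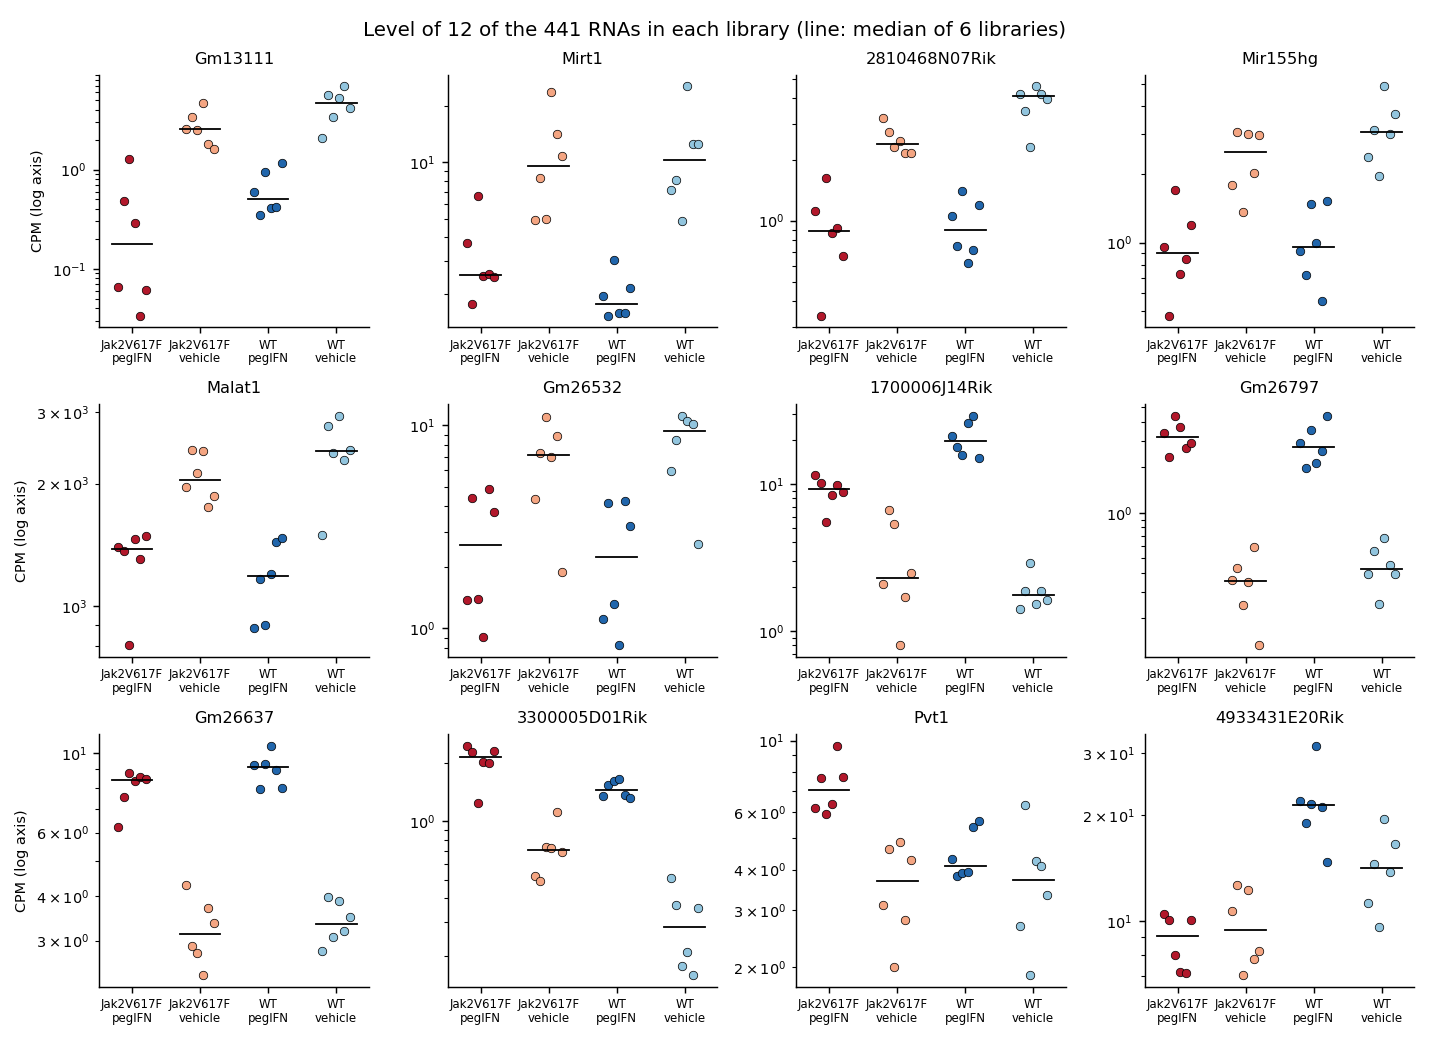
CPM on a log axis of 12 members in each library, in groups of 6 ordered Jak2V617F pegIFN, Jak2V617F vehicle, wild-type pegIFN and wild-type vehicle, with a line at each median. Gm13111 and Malat1 are lower and Gm26797 and Gm26637 higher in treated libraries without overlap, and 1700006J14Rik reaches 14.88 to 28.99 CPM in wild-type pegIFN libraries alone.

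Noncoding RNAs with described functions were taken from 6 lists of 73 symbols. Of these 49 were found among all rows, 33 were tested and 17 were members. Among the tested ones 10 fell and 5 rose in Jak2V617F and 13 fell and 5 rose in wild-type cells. Over all tested genes 22.3% fell and 21.7% rose in Jak2V617F, and 28.7% fell and 28.2% rose in wild-type cells. Of 6 tested RNAs of nuclear bodies and chromatin, 4 fell in both genotypes, namely the members' Malat1 and, outside the members, Neat1 of paraspeckles (-0.73 in Jak2V617F and -1.15 in wild-type cells, log2), Miat (-1.31 and -2.21) and the imprinting RNA Airn (-1.60 and -1.25). Tug1 was not called, with 123.1 to 151.2 CPM in Jak2V617F pegIFN, 122.9 to 152.1 in Jak2V617F vehicle, 118.7 to 149.6 in wild-type pegIFN and 116.5 to 166.4 CPM in wild-type vehicle libraries.

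Hosts of microRNAs gave 2 falls in Jak2V617F and 5 in wild-type cells among 8 tested, and 0 rises. Over all tested genes 22.3% fell in Jak2V617F cells, which is near the 2 of 8, and 28.7% in wild-type cells. Mir155hg (mmu-mir-155 in the table) carries miR-155, which promotes myeloid expansion and inflammatory responses. It had 0.9559, 0.4771, 1.707, 0.7234, 0.8469 and 1.194 CPM in Jak2V617F pegIFN libraries against 1.799, 3.076, 1.366, 2.996, 2.032 and 2.983 CPM in Jak2V617F vehicle libraries. It had 0.5518 to 1.528 CPM in wild-type pegIFN libraries against 1.962 to 4.892 CPM in wild-type vehicle libraries, where the groups did not overlap. The fold change was 0.416 in Jak2V617F (adjusted p = 0.00143) and 0.327 in wild-type cells (adjusted p = 6.17e-05). Mir17hg, host of the miR-17-92 cluster, was not called (-0.04 ± 0.15 and -0.32 ± 0.15, SE, log2), nor was Mir142hg, host of the blood-specific miR-142 (-0.20 ± 0.18 in both), nor Dleu2, host of miR-15a and miR-16 (0.03 ± 0.20 and -0.22 ± 0.20).

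Of 8 tested hosts of small nucleolar RNAs, 0 fell and 2 rose in both genotypes, a share of rises near that of all tested genes (21.7% in Jak2V617F and 28.2% in wild-type cells). Snhg5 (CT025673.1) rose by 0.23 in Jak2V617F and 0.27 in wild-type cells and Zfas1, outside the members, by 0.39 and 0.38 on the log2 scale. Snhg5 had 50.21 to 77.92 CPM in Jak2V617F pegIFN and 48.64 to 60.17 CPM in Jak2V617F vehicle libraries, which overlap, and without the 2 libraries that stand apart its adjusted p in Jak2V617F cells was 0.128. Snhg12, Snhg15, Snhg17 and Snhg20 were not called in either genotype, and their log2 changes lay between -0.38 and 0.19.

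Among regulators of specific proteins and RNAs, Pvt1 (AC126552.1) lies 47.61 kb from Myc, whose protein it is known to stabilise in human cells. It had 6.197, 7.668, 5.945, 6.366, 9.655 and 7.743 CPM in Jak2V617F pegIFN libraries, all above the 1.996 to 4.877 CPM of Jak2V617F vehicle libraries. It had 3.824 to 5.648 CPM in wild-type pegIFN and 1.89 to 6.325 CPM in wild-type vehicle libraries, which overlapped fully. It rose 2.0-fold in Jak2V617F cells (adjusted p = 0.0012), and was not called in wild-type cells (log2 0.25 ± 0.23, SE, adjusted p = 0.36). Myc rose by 0.28 and 0.34 on the log2 scale in Jak2V617F and wild-type cells.

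Trp53cor1, known as lincRNA-p21, is a p53 target 12.02 kb from Cdkn1a, the gene of the cell cycle inhibitor p21. It had 2.802, 1.5, 4.329, 3.183, 3.489 and 3.55 CPM in Jak2V617F pegIFN libraries and 1.08, 2.061, 0.7353, 2.439, 2.295 and 1.425 CPM in Jak2V617F vehicle libraries. It rose 1.87-fold there (adjusted p = 0.0185), with 1 treated library inside the vehicle range, and stood at 1.285 to 2.743 CPM in wild-type pegIFN and 1.272 to 3.924 CPM in wild-type vehicle libraries (log2 -0.01 ± 0.30, SE, adjusted p = 0.973). Cdkn1a rose by 1.42 in Jak2V617F cells (adjusted p = 0.00116) and was not called in wild-type cells (0.24, adjusted p = 0.54). 1700020I14Rik was not called (-0.07 ± 0.07 in both, SE, log2).

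Of 5 tested RNAs described in blood and immune cells, 4 fell and 1 rose in both genotypes. The 1 rise is near the share of all tested genes that rose (21.7% in Jak2V617F and 28.2% in wild-type cells). Falls made up 22.3% of all tested genes in Jak2V617F and 28.7% in wild-type cells. Gm14005, which is Morrbid in RefSeq, restrains the pro-apoptotic gene Bcl2l11 (Bim) in short-lived myeloid cells and lies 33.45 kb from it. It had 1.055, 1.125, 1.28, 1.953, 1.321 and 1.714 CPM in Jak2V617F pegIFN libraries against 0.7598, 1.107, 1.156, 0.5226, 0.9507 and 0.895 CPM in Jak2V617F vehicle libraries, with slight overlap. It had 0.6497, 0.9718, 1.245, 0.9631, 1.234 and 1.861 CPM in wild-type pegIFN libraries, all above the 0.3923 to 0.5553 CPM of wild-type vehicle libraries. The rise was 1.56-fold in Jak2V617F (adjusted p = 0.0333) and 2.44-fold in wild-type cells (adjusted p = 0.000123). Bcl2l11 fell by 0.32 ± 0.09 in wild-type cells (adjusted p = 0.00314) and was not called in Jak2V617F cells (-0.21, adjusted p = 0.0518). The list's falls were those of Mirt1, of Hoxaas2 (-1.60 in Jak2V617F and -2.72 in wild-type cells, log2) and Hoxaas3 (-0.67 and -0.83) at the Hoxa cluster, and of the immune RNA AW112010 (-0.32 and -0.60).

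The change of each member was set beside that of the nearest tested protein-coding gene. For the 250 members that overlapped it, the log2 fold changes correlated across pairs with Pearson's r of 0.47 in both genotypes, and over all 441 with r of 0.38 in Jak2V617F and 0.34 in wild-type cells. These are descriptions over pairs that share libraries, and overlapping genes may share reads. For the 20 pairs over 50 kb apart r was 0.25 in Jak2V617F and -0.38 in wild-type cells. Of the 181 members that fell in wild-type cells, 87 had a neighbour that fell and 44 one that rose, where 29.5% of all 12100 protein-coding rows fell and 32.6% rose. The median of those neighbours was -0.17, against 0.02 for all protein-coding rows. Of the 36 that rose, 20 had a neighbour that rose and 8 one that fell. In Jak2V617F cells 51 of 137 neighbours fell with the member and 21 rose, where 23.7% of protein-coding rows fell and 25.1% rose, and 13 of 30 rose with it and 3 fell. Where the neighbour lay within 5 kb without overlap, 13 neighbours of 47 members that fell in Jak2V617F cells fell and 15 rose, and in wild-type cells 24 of 53 fell and 19 rose.

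**Figure D5:**
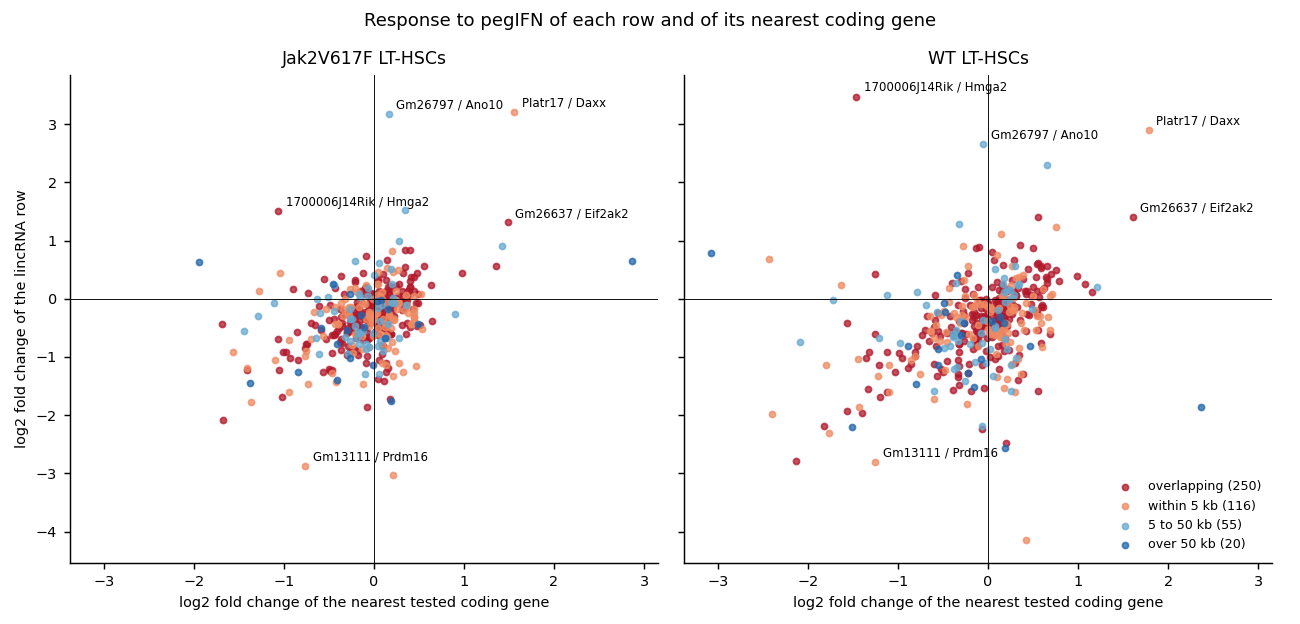
Log2 fold change with pegIFN of each of the 441 members (y axis) against that of its nearest tested protein-coding gene (x axis), in Jak2V617F (left) and wild-type (right) LT-HSCs, coloured by the distance between them. Gm26637 rises with Eif2ak2, 1700006J14Rik rises while Hmga2 falls, and Gm26797 rises by 2.66 in wild-type cells while Ano10 is at -0.05.

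The effect of the mutation was compared between the genotypes within each treatment. Without a term for the mouse few members were called. Under vehicle 8 were higher and 6 lower in Jak2V617F, where 8.48% of all tested genes were higher, 4.23% lower and 12.7% called. Under pegIFN 4 were higher and 6 lower, where 4.16% of all genes were higher, 4.43% lower and 8.59% called. The split under vehicle depended on scaling, with 5 higher and 13 lower with upper-quartile factors and 6 higher and 7 lower with RLE size factors. Without the 2 libraries that stand apart 3 members were higher and 0 lower under vehicle, and 1 higher and 5 lower under pegIFN. With each mouse as a block, since both genotypes came from the same mouse, 18 were higher and 55 lower under vehicle (17.5% and 13.6% of all genes, 31.1% together) and 22 higher and 29 lower under pegIFN (13.3% and 11.3%, 24.6% together). Of the 14 and 10 called without the block, 13 and 10 were also called with it. With the block 8 members were higher and 14 lower in both treatments, and 0 changed direction between them. That overlap was not counted over all tested genes either.

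Granulocyte and monocyte markers moved with genotype under pegIFN, where 3 of 9 were higher in Jak2V617F, and they summed to 753.3 to 1275 CPM in Jak2V617F pegIFN and 155.1 to 535.3 CPM in wild-type pegIFN libraries. Under pegIFN 1 of 8 LT-HSC gate genes and 1 of 8 erythroid genes were lower. Under vehicle 2 of 8 gate genes were lower. There 2 of 6 megakaryocyte and mast cell genes and the 1 tested T and NK cell gene were higher. The part of these markers in the genotype differences was not tested. Under both treatments Gm26631 (AC164548.1), which overlaps the cytochrome oxidase gene Cox5a, was higher in Jak2V617F and Gm26809 (AC136215.1) was lower. With the mouse as a block both were also called under both treatments. The log2 differences, SE and adjusted p of single genes in this genotype comparison are from the fit without that block. Gm26631 had 6.372 to 8.263 CPM in Jak2V617F pegIFN libraries against 4.445 to 6.014 CPM in wild-type pegIFN libraries, and 3.972 to 6.678 CPM in Jak2V617F vehicle against 2.852 to 5.09 CPM in wild-type vehicle libraries. It differed by 0.47 ± 0.15 (SE, log2) in both (adjusted p = 0.0487 under pegIFN and 0.0382 under vehicle), and without the 2 libraries that stand apart the adjusted p was 0.0718 and 0.11. Gm26809 had 7.384 to 10.21 CPM in Jak2V617F pegIFN libraries against 10.09 to 13.83 CPM in wild-type pegIFN libraries, and 9.481 to 13.03 CPM in Jak2V617F vehicle against 12.72 to 14.62 CPM in wild-type vehicle libraries. It was lower by 0.51 ± 0.10 under pegIFN (adjusted p = 0.00233) and by 0.31 ± 0.10 under vehicle (adjusted p = 0.0362, or 0.0758 without those libraries).

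All 6 members called lower in Jak2V617F under pegIFN without the block shared exon bases with another gene and had divided reads in at least 1 library. Reads of the partner genes cannot be told apart from theirs. The clearest difference under pegIFN was in 4933431E20Rik, which overlaps the glutathione transferase gene Gstm5. It had 10.52, 10.12, 8.048, 7.162, 7.114 and 10.07 CPM in Jak2V617F pegIFN libraries against 21.98, 19, 21.59, 31.58, 21.1 and 14.75 CPM in wild-type pegIFN libraries, with no overlap. The log2 difference was -1.29 ± 0.18 (SE, adjusted p = 0.000156), and Gstm5 was lower by 0.45 (adjusted p = 0.00384). Under vehicle it had 7.038 to 12.7 CPM in Jak2V617F and 9.629 to 19.54 CPM in wild-type libraries. Gm26577 (AC153556.1), antisense within the progenitor transcription factor gene Myb, had 10.38, 9.44, 9.695, 9.694, 9.96 and 9.732 CPM in Jak2V617F pegIFN libraries, all below the 13.01 to 22.56 CPM of wild-type pegIFN libraries. It was lower by 0.79 ± 0.12 (SE, adjusted p = 0.000356) and Myb by 0.67 (adjusted p = 9.48e-05). 1700006J14Rik was lower by 1.2 ± 0.32 (SE, adjusted p = 0.0248).

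AI662270, on chromosome 11 near the Schlafen genes, had 354, 284.3, 272.8, 334.2, 275.9 and 334.4 CPM in Jak2V617F pegIFN libraries and 248.9, 213.1, 222.9, 233.2, 241.4 and 298 CPM in wild-type pegIFN libraries. It was higher by 0.35 ± 0.08 on the log2 scale (SE, adjusted p = 0.0103), with 1 wild-type library inside the Jak2V617F range. Its adjusted p was 0.0343 without the 2 libraries that stand apart and 0.0521 without their mice, where no member was called higher. 1810058I24Rik was higher by 0.27 and Gm13431 by 0.68, with adjusted p of 0.0838 and 0.0784 without the 2 libraries that stand apart. Under vehicle the largest differences of members with at least 2 CPM were 2010110K18Rik (AC145591.1, 0.89 ± 0.26 higher), 2610035D17Rik (-0.65 ± 0.19), 2810002D19Rik (-0.54 ± 0.17) and Atp10d (-0.45 ± 0.13, SE). Without those libraries 2010110K18Rik kept an adjusted p of 0.0394, while the others had 0.0836, 0.0619 and 0.0987. AU020206 and 1810014B01Rik were each higher by 0.35, with adjusted p of 0.0824 and 0.057 without them. Among those below 2 CPM, 3300005D01Rik was higher by 1.25 ± 0.27 (SE, adjusted p = 0.00544), with 0.4922 to 1.115 CPM in Jak2V617F vehicle and 0.1599 to 0.5089 CPM in wild-type vehicle libraries, and Gm14005 by 0.93 ± 0.25 (SE, adjusted p = 0.0187). Both were called without the 2 libraries too (adjusted p = 0.0189 and 0.0439).

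Whether the responses to pegIFN differed between the genotypes was tested as the interaction, as the Jak2V617F response minus that of wild-type cells. By edgeR without a block 0 members were called (0.0% of all genes), and DESeq2 called 1. Without a block edgeR gave an unadjusted p under 0.05 for 22 of the 441 members, about the 1 in 20 that chance gives. It did so for 1338 of all 15879 tested genes. The members' median interaction was 0.11 in that fit. When edgeR took account of the shared mice, 48 of the 441 members had an unadjusted p under 0.05, more than 1 in 20. Among all 15879 tested genes 3095 did. With the mouse as a block 6 members were higher and 4 lower, where 1.28% of all genes were higher, 2.05% lower and 3.33% called. limma-voom, in which the mouse was a random effect, called 0 higher and 2 lower, so none of the 6 higher calls was made by that fit. In the edgeR fit with the block, the response of 1700006J14Rik was smaller in Jak2V617F by 1.76 ± 0.35 on the log2 scale (SE, adjusted p = 0.0191). Those of Mirt1 (0.75 ± 0.18), Gm17552 (0.65), Gm13881 (0.58) and 8430419K02Rik (0.78) were falls that were shallower in Jak2V617F cells. Pvt1 (0.72 ± 0.19, adjusted p = 0.0428) and Trp53cor1 (0.89 ± 0.23, SE, adjusted p = 0.0431) rose in Jak2V617F cells and were not called in wild-type cells, and the responses of Gm26577 (-0.55), 4933404O12Rik (-0.34) and Gm17315 (-1.66) were lower in Jak2V617F cells.

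Spread between libraries of a group was moderate for most members. The median coefficient of variation within a group was 24.18% in Jak2V617F pegIFN, 21.23% in Jak2V617F vehicle, 19.77% in wild-type pegIFN and 23.89% in wild-type vehicle libraries. The exception was Gm26778 (AC102815.1), at chr14:102978220-102982528, with a mean coefficient of 141%, named here after its values were seen. It had 0, 9.577, 49.51, 23.94, 5.082 and 67.82 CPM in Jak2V617F pegIFN libraries and 0, 0, 0, 17.44, 0 and 0 CPM in wild-type pegIFN libraries of the same mice 1 to 6. In vehicle mice it had 0, 0.1538, 21.29, 18.81, 22.16 and 37.06 CPM in Jak2V617F and 1.781, 0, 26.75, 0.02616, 5.789 and 27.8 CPM in wild-type libraries. High levels and levels of 0 thus stood side by side within the groups and within single mice, and no comparison called it. All of its exon bases are shared with another gene, and its nearest tested coding gene was the macrophage enzyme gene Irg1 (Acod1), 64.45 kb away.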

How the data were processed

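Polyadenylated RNA of sorted mouse LT-HSCs was sequenced as single-end reads, with 24 libraries in 4 groups of 6. The deposited values are expected counts per gene, made by the authors with RSEM 1.2.30. The submitters' processing notes also list STAR 2.5.2a, cutadapt and the build GRCm38. The annotation release and the strand setting are not given in the sources used here. RSEM divides reads that fit several genes, so counts of overlapping rows can carry reads of their partner.

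Expected counts were rounded to whole numbers. Of 38215 genes, 15879 passed filterByExpr (minimum count 10) and held 99.95% of counts, and 22336 were removed. All 441 members passed, but some only through the groups in which they were high. Fits used edgeR 4.0.16 in R 4.3.3 (quasi-likelihood, robust, TMM scaling, 1 mean per group), with Benjamini-Hochberg adjustment over all 15879 genes and a threshold of 0.05, and the script was tested on simulated data. CPM values use TMM-scaled library sizes. Totals were 24.6 M to 39.7 M counts, and the common biological coefficient of variation was 18.6%. Alternatives included RLE and upper-quartile scaling, other filters, DESeq2 1.42.0, limma 3.58.1 (voom), and leaving out the 2 libraries that stand apart or their mice.

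The number in a library name gives the mouse. Deviations from the group means correlated in all 12 same-mouse pairs (r from 0.12 to 0.42, median 0.28). Of the 12 wild-type libraries, 11 correlated best with the Jak2V617F library of their own mouse. For genotype and the interaction a further fit therefore used the mouse as a block. For treatment, the replicate block instead joined treated and vehicle libraries by replicate number. Those are different mice, and their deviations correlated with r from -0.24 to 0.06, so that block has no basis in the design. The labels do not say that libraries of a group came from separate donors, so p-values measure the spread between these libraries.

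Members with a mean of 2 CPM or more were named for the 6 largest called changes in each direction with treatment and the 4 largest with genotype, together with the 8 members with the highest mean CPM and the members of the role lists. Others are said to have been chosen after their values were seen. The members and lists were chosen with earlier results of these data known.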

Additional observations from a re-analysis of the deposited data

Results flagged for a closer look

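Single libraries far from the other 5 of their group, by the gap to the nearest library relative to the group's range, were found in 12 of 200 groups of 6 libraries tested, where chance gives about 1 in 20. In Jak2V617F pegIFN libraries, replicate 3 had 1.28 CPM of Gm13111, 14.05 CPM of 2610035D17Rik and 803.2 CPM of Malat1, and replicate 4 had 25.86 CPM of Snhg20. In Jak2V617F vehicle libraries, replicate 4 had 6.759 CPM of Smim1. In wild-type pegIFN libraries, replicate 2 had 1.285 CPM of Trp53cor1, replicate 3 had 5.106 CPM of Gm17552, replicate 4 had 17.44 CPM of Gm26778, and replicate 6 had 59.64 CPM of Gm17275 and 44.12 CPM of Snhg12. In wild-type vehicle libraries, replicate 3 had 2.924 CPM of 1700006J14Rik and replicate 4 had 25.48 CPM of Mirt1.

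The response to pegIFN differed between Jak2V617F and wild-type cells for 10 members in edgeR's quasi-likelihood test with the mouse as a block, given as the Jak2V617F log2 response minus the wild-type one. It was higher for 8430419K02Rik (0.78, adjusted p = 0.0454), Gm13881 (0.58, adjusted p = 0.042), Gm17552 (0.65, adjusted p = 0.0463), Mirt1 (0.75, adjusted p = 0.0303), Pvt1 (0.72, adjusted p = 0.0428) and Trp53cor1 (0.89, adjusted p = 0.0431). It was lower for 1700006J14Rik (-1.76, adjusted p = 0.0191), 4933404O12Rik (-0.34, adjusted p = 0.0153), Gm17315 (-1.66, adjusted p = 0.037) and Gm26577 (-0.55, adjusted p = 0.0283). Without the block none of these was called, and limma-voom, in which the mouse was a random effect, called 0 members higher and 2 lower.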

How the results depend on the processing

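With pegIFN, 167 members were called in Jak2V617F and 217 in wild-type cells. The other fits to all members gave 133 to 175 in Jak2V617F and 188 to 236 in wild-type cells. Restricting to whole counts gave 85 in Jak2V617F and 105 in wild-type cells, and to isolated rows 24 and 27, since fewer rows were counted. Under vehicle 14 members differed by genotype, against 6 with no filter on low counts, 33 by DESeq2 and 3 with only the groups compared. With the mouse as a block 73 differed, and 90 by limma-voom. Without the 2 libraries that stand apart 3 differed, and 5 among isolated rows. Under pegIFN 10 differed, against 6 with no filter, 51 with the mouse as a block and 44 by limma-voom. Without those libraries 6 differed, 5 without their mice, 2 among rows with whole counts and 2 among isolated rows. The interaction called 0 members, 1 by DESeq2, 10 with the mouse as a block and 2 by limma-voom. The cause of these differences was not tested.

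Of the alternatives for 80 named results, 798 kept direction and side of the threshold, 50 lost the call, 15 gained one and 15 changed sign, all small changes that were not called. In wild-type cells Trp53cor1 was 0.02 with no filter, 0.06 with the replicate block, 0.07 by limma-voom, 0.21 without the 2 libraries and 0.19 without their mice, and Snhg17 was -0.02 with upper-quartile factors. In Jak2V617F cells upper-quartile factors gave -0.02 for Snhg17, -0.01 for Tmem250-ps and -0.03 for Dleu2. Dleu2 was -0.0 with the replicate block, -0.03 by limma-voom, -0.06 without the 2 libraries and -0.02 without their mice, where Mir142hg was 0.03 and Tug1 0.01. A mean under 100 counts was found for 253 members, whose values rest on few reads per library.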
